A study of Mus musculus with 12 samples.

Results

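The grainyhead family of transcription factors was followed in mouse tongue epithelium as 6 genes, found by symbol among the 49164 genes with counts. They were Tfcp2l1, Tfcp2 and Ubp1 of the CP2 branch and Grhl1, Grhl2 and Grhl3 of the grainyhead-like branch, and all 6 were abundant enough to be tested. The family was chosen by the level of Tfcp2l1 in DT against PBS, which had been seen to be higher, so that its fold change is given as a description with no test. RNA came from 12 samples of tongue epithelium of Langerin-DTR mice, which carry the receptor for diphtheria toxin in cells that use the langerin promoter. From an age of 2 weeks until adulthood the mice received 2 injections per week, of diphtheria toxin (DT) for 6 samples and of phosphate-buffered saline (PBS) for 6. Epithelium was lifted off with dispase and digested with collagenase, and libraries were made with a stranded mRNA kit. Both groups carried the receptor, and toxin-treated mice without it were not analysed here, so that effects of the toxin and of the loss of langerin-positive cells cannot be told apart. Strain, exact age and pooling of animals are not given in the labels, and p-values measure the spread between these samples.

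Grainyhead factors bind DNA through a fold that resembles that of p53. Those of the grainyhead-like branch are known for building epithelial sheets: they act on genes of cell adhesion and of the surface barrier, and mice without them have defects of neural tube closure (Grhl2, Grhl3), skin barrier (Grhl3) or desmosomes and hair anchoring (Grhl1). Of the CP2 branch, Tfcp2 was first described as a binder of the alpha-globin promoter, Ubp1 is needed in the placenta, and Tfcp2l1 is known from kidney collecting ducts, salivary ducts and the naive state of embryonic stem cells, where it lies downstream of LIF and STAT3.

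Total counts were 21226436 to 34333949 per sample. Counts are given as CPM, a count divided by the library total and scaled to a common size with TMM, a trimmed mean that sets most genes to a common level. Cd207, which encodes langerin, had 53 to 92 counts in each PBS sample and 4 counts over all DT samples, so that it went with the labels in 12 of 12 samples. Of the 14231 genes tested, 1.30% passed an adjusted p of 0.05 by edgeR (0.443% higher and 0.857% lower in DT), and 2.21% had CPM ranges that did not overlap between the groups (0.836% higher and 1.37% lower). Keratinocyte markers, Krt4 and Krt13 among them, summed to 139972 to 178516 CPM in PBS and 119113 to 152363 CPM in DT. Of the 10 tested, 8 had a negative and 2 a positive fold change, against 6888 and 7343 of all genes tested. Of these 10, 1 passed, against 1.30% of all genes: Krt78, a keratin gene, fell (log2 fold change -0.37, edgeR adjusted p = 0.0441).

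The promoters of Tfcp2l1 and of Tfcp2, the member of the family that followed it most closely between samples, are shown because these genes varied together. Each is the 250 bases before the start site in RefSeq on GRCm38.p6, which is not the build of the counts, GRCm39. Capitals mark TATAAA, which was searched on both strands.
Tfcp2l1, chr1:118627695-118627944, plus strand: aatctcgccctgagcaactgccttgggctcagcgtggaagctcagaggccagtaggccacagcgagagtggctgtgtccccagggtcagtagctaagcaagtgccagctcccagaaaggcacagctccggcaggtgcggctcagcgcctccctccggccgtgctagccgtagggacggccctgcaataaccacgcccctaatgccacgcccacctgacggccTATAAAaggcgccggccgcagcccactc
Tfcp2, chr15:100552009-100552258, minus strand: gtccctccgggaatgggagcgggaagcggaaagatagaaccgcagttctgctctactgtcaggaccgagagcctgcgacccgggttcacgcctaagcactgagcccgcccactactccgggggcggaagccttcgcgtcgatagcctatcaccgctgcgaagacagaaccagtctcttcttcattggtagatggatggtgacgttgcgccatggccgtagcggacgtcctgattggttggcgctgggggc
TATAAA began 28 bases before the start of Tfcp2l1 and was not in the window of Tfcp2; 12.4% of 32851 promoter windows held it. GC content was 65.2% for Tfcp2l1 and 61.6% for Tfcp2, against a median of 52.4% over all windows. AACCGGTT, the palindrome that grainyhead-like factors bind, was in neither window and in 0.116% of all. The CP2 repeat, CCAG followed after 6 bases by a second CCAG, and TTCCNGGAA, bound by STAT factors, were in neither window and in 2.78% and 0.913% of all. AACCGG, the core of the grainyhead palindrome, was found in 1 of 7 windows of the family, an upstream start of Ubp1, and in 5.62% of all windows; Grhl2 had no window in the table.

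Tfcp2l1 (ENSMUSG00000026380) was the member that set the groups apart. It had 305 to 632 counts in PBS and 828 to 1548 in DT. In CPM the PBS samples had a lowest value of 11.7, a median of 20.0 and a highest value of 23.1. The DT samples had a lowest value of 27.7, a median of 36.9 and a highest value of 45.6. The groups did not overlap: the lowest DT sample, DT 4, lay above the highest PBS sample, PBS 4. Within PBS, PBS 5 was low and the other samples lay at 18.8 to 23.1 CPM. Within DT, the samples DT 2, DT 5 and DT 6 lay at 41.7 to 45.6 CPM and DT 1, DT 3 and DT 4 at 27.7 to 32.1 CPM. The means were 19.4 ± 4.16 CPM (SD, n = 6) in PBS and 36.7 ± 7.23 CPM (SD, n = 6) in DT, a log2 fold change of 0.92 ± 0.15 (SE; 95% interval 0.60 to 1.24), or 1.90-fold. In bulk samples more cells with the transcript and more transcript per cell cannot be told apart.

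Of the other CP2 members, Tfcp2 (ENSMUSG00000009733) was scarce, with 81 to 181 counts per sample. It had a lowest value of 3.10, a median of 3.94 and a highest value of 4.61 CPM in PBS, and 3.98, 4.58 and 5.09 CPM in DT. The ranges overlapped, with 3 of 6 DT samples above the highest PBS sample. The log2 fold change was 0.24 (95% interval 0.01 to 0.48; edgeR adjusted p = 0.300), so that Tfcp2 did not pass. Counting error alone gives a spread of 10.1% in PBS and 8.32% in DT at this depth, against a measured spread of 14.2% and 10.5%. Ubp1 (ENSMUSG00000009741) averaged 64.2 ± 4.37 CPM (PBS) and 67.4 ± 4.32 CPM (DT; SD, n = 6 each). Its lowest, median and highest values were 58.4, 64.3 and 69.4 CPM in PBS and 61.0, 68.1 and 72.9 CPM in DT. Its groups overlapped over most of their range, and it did not pass (log2 fold change 0.07, 95% interval -0.06 to 0.20, edgeR adjusted p = 0.622).

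**Figure D1:**
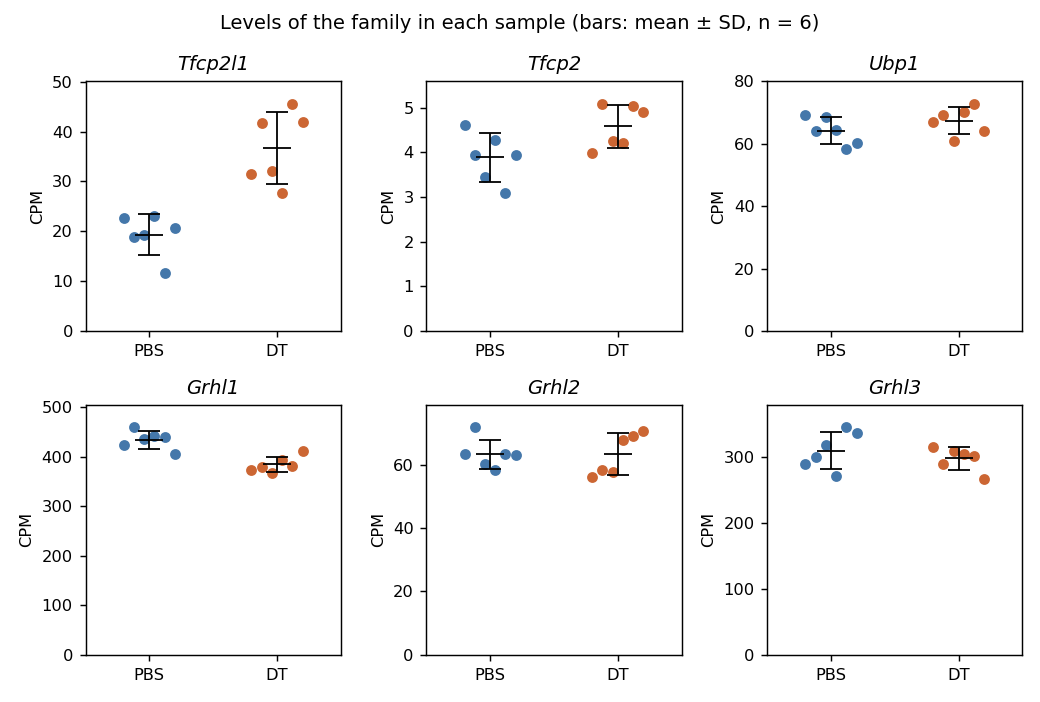
Level of each family member in every sample, in CPM on axes that start at 0, with PBS in blue and DT in orange; black bars give the mean and SD of 6 samples. Tfcp2l1 has no overlap between the groups (up to 23.1 CPM in PBS, from 27.7 CPM in DT), whereas the other members overlap.

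In the grainyhead-like branch no member passed. Grhl1 (ENSMUSG00000020656), tied to desmosomal cadherins in skin, had the largest difference of the branch, towards lower values. Its lowest, median and highest values were 405, 436 and 459 CPM in PBS and 366, 380 and 410 CPM in DT. All DT samples but DT 6 lay below the lowest PBS sample, PBS 6. Grhl1 had a log2 fold change of -0.18 ± 0.05 (SE), a 95% interval of -0.29 to -0.07 and an edgeR adjusted p of 0.106; it passed by DESeq2 (adjusted p = 0.00328), and with scaling by library size alone it was -0.07. Grhl2 (ENSMUSG00000022286), which acts on E-cadherin and claudins, had almost the same mean in both groups, 63.3 ± 4.61 CPM in PBS and 63.3 ± 6.57 CPM in DT (SD, n = 6 each; log2 fold change 0.00, 95% interval -0.15 to 0.15, edgeR adjusted p = 0.999). Its DT samples were split: DT 1, DT 2 and DT 3 lay at 56.2 to 58.3 CPM and DT 4, DT 5 and DT 6 at 67.9 to 70.7 CPM, while the PBS samples ran from 58.2 to 71.7 CPM. Grhl3 (ENSMUSG00000037188), which acts on the cross-linking enzyme Tgm1 and on wound closure, had lowest, median and highest values of 270, 308 and 344 CPM in PBS and 266, 303 and 314 CPM in DT. It did not pass (log2 fold change -0.06, 95% interval -0.20 to 0.08, edgeR adjusted p = 0.748), and its sign turned with scaling by library size alone (0.05).

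Among the 6 members 1 passed the threshold and had groups without overlap; this is Tfcp2l1, for which the family was chosen, and nothing is read from the count beside the 1.30% and 2.21% of all genes (0.443% and 0.836% for higher in DT). The differences between members were not tested.

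**Figure D2:**
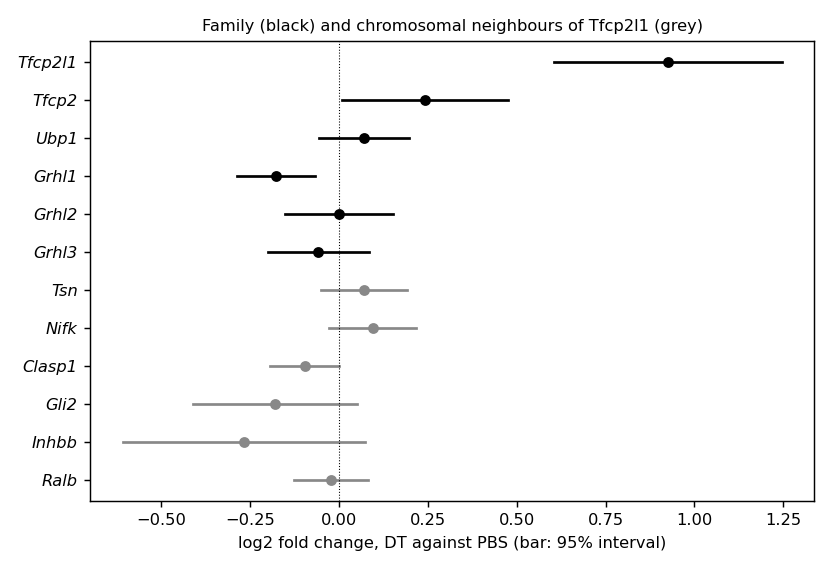
Log2 fold change of DT against PBS (points) with its 95% interval (bars) for the 6 family members in black and the 3 nearest tested genes on each side of Tfcp2l1 in grey. Tfcp2l1 lies at 0.92, and the 6 neighbours lie between -0.27 and 0.10.

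None of the 6 tested genes nearest to Tfcp2l1 on its chromosome passed. In the order of the reference gene table, Tsn, Nifk and Clasp1 lie on one side and Gli2, Inhbb and Ralb on the other. Clasp1, a microtubule-binding protein, had 107 ± 4.63 CPM (PBS) and 99.8 ± 2.39 CPM (DT) (SD, n = 6 each; log2 fold change -0.10, edgeR adjusted p = 0.340). Gli2, a transcription factor of hedgehog signalling, was at 13.3 ± 2.55 and 11.7 ± 1.15 CPM (-0.18, edgeR adjusted p = 0.459). The activin subunit gene Inhbb was at -0.27, Nifk at 0.10, Tsn at 0.07 and Ralb at -0.02, and 0 of the 6 passed by edgeR (adjusted p of 0.340 to 0.885) or had an unadjusted p under 0.05.

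Levels of the members are comparable only per length. The reference annotation, GENCODE M21, gives Tfcp2l1 a transcript of 9269 bases of which 1437 are coding and 7737 are 3' untranslated, so that its counts spread over a long RNA. Per kb of all annotated exons, the PBS levels were 111 ± 10.1 CPM per kb for Grhl3, 78.3 ± 3.27 for Grhl1, 13.5 ± 0.919 for Ubp1, 7.35 ± 0.535 for Grhl2, 2.05 ± 0.441 for Tfcp2l1 and 0.482 ± 0.0682 for Tfcp2 (SD, n = 6). The ranges of neighbours in this order did not overlap in PBS. Per kb of the longest coding transcript, Grhl1 (125 ± 5.22 CPM per kb) stood above Grhl3 (111 ± 10.1 CPM per kb), and their ranges overlapped; the order of the other members was kept. On the scale of all exons Grhl3 was 54.0 times as abundant as Tfcp2l1 in PBS and 27.4 times in DT, and Tfcp2l1 made up 0.965% of the summed family level in PBS and 1.93% in DT. Tfcp2l1 stayed in the fifth place in DT on both scales.

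**Figure D3:**
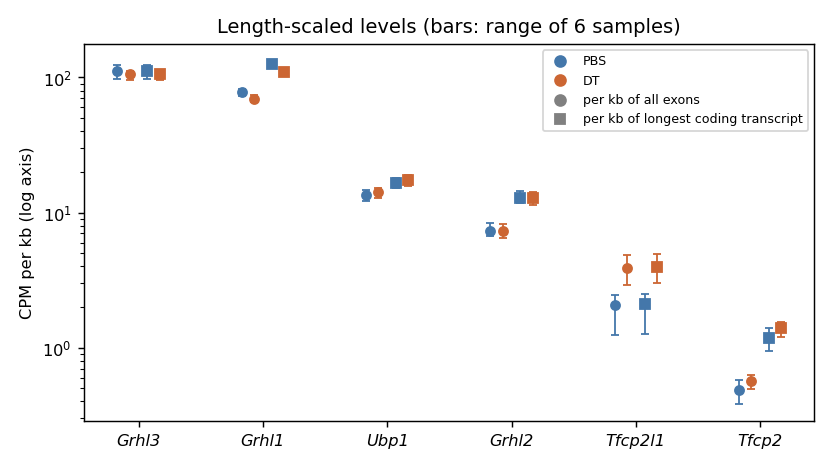
Level of each member in CPM per kb on a log axis, for PBS (blue) and DT (orange); circles use the length of all exons, squares that of the longest coding transcript, and bars give the range of 6 samples. The family spans from Tfcp2 (0.482 CPM per kb of exons in PBS) to Grhl3 (111 CPM per kb).

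Differences between samples of the same group were not used to choose the family, and here Tfcp2l1 and Tfcp2 moved together. After the mean of each group was subtracted from log2 CPM, their Pearson correlation over 12 samples was 0.888 (exact permutation p = 0.000548 within groups, two-sided; adjusted over 15 pairs of members 0.00822) and Spearman's rho was 0.771 (exact permutation p = 0.00979; adjusted 0.0734). It was 0.872 within the 6 PBS samples and 0.918 within the 6 DT samples. Samples PBS 5 and DT 4, farthest from the median of Tfcp2l1, were left out in a repeat, which gave 0.866; without PBS 5 alone it was 0.828. The 4 samples lowest in Tfcp2l1 for their group (PBS 5, DT 1, DT 3 and DT 4) were all low in Tfcp2 too, and PBS 3 was low in Tfcp2 alone. These correlations were tested after the likeness of the genes had been seen.

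Reads of related genes can be assigned to either where they share sequence. The longest identical run between the longest coding transcripts of Tfcp2l1 and Tfcp2 had 24 bases, lies outside the coding part in both, and reads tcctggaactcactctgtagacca. Of the 9412 different 25-base words in transcripts of Tfcp2l1, 6 occur in transcripts of Tfcp2. Both genes also moved with sample-wide measures: the correlation with the TMM factor was 0.609 for Tfcp2l1 and 0.645 for Tfcp2, and that with the first principal component of all genes was -0.454 and -0.511. With the TMM factor removed from both genes by regression their correlation was 0.817, and with the first component removed it was 0.857.

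Grhl3 tended to vary the opposite way. Its correlation with Tfcp2l1 was -0.674 (Spearman's rho -0.714; exact permutation p = 0.0202 and 0.0201; adjusted over 15 pairs 0.101 for each), and that with Tfcp2 was -0.745 (rho -0.829; exact permutation p = 0.0127 and 0.00385; adjusted 0.0956 and 0.0577). Neither passed after adjustment. Leaving out the 2 samples farthest from the median gave -0.567 and -0.603. Without PBS 5 alone the correlations of Grhl3 with Tfcp2l1 and Tfcp2 were -0.53 and -0.65. With the TMM factor removed they were -0.515 and -0.614, and with the first principal component removed -0.561 and -0.634. The correlation of Ubp1 with Tfcp2l1 was 0.487 (rho 0.371; exact permutation p = 0.132 and 0.274; adjusted 0.329 and 0.513), and those of Grhl1 and Grhl2 with Tfcp2l1 were -0.02 and 0.06.

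**Figure D4:**
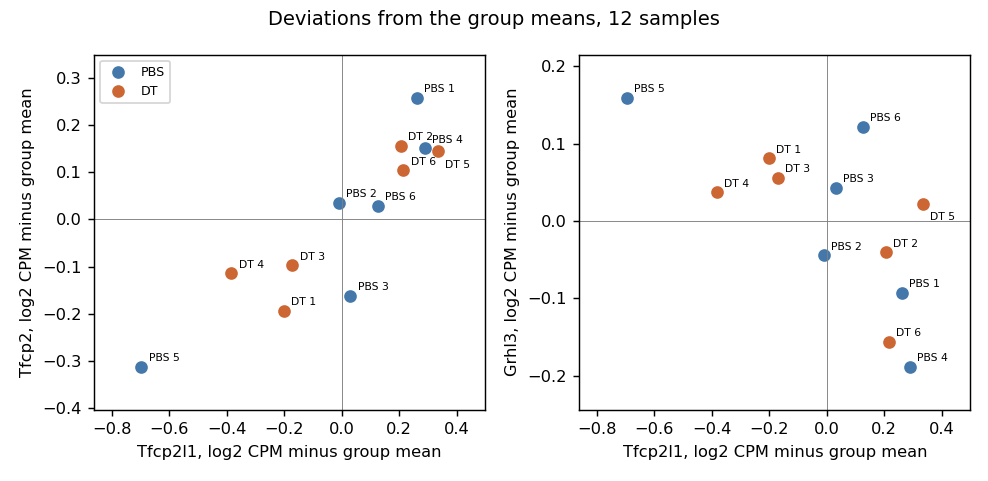
Deviation of each sample from its group mean in log2 CPM, for Tfcp2l1 (horizontal axes) against Tfcp2 (left) and Grhl3 (right), with PBS in blue and DT in orange. Tfcp2 rises with Tfcp2l1 (correlation 0.888) and Grhl3 falls (-0.674), with PBS 5 farthest out along the horizontal axis of both panels.

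Among 11558 genes (mean level 1 CPM or more, predicted genes left out), those most like Tfcp2l1 by this measure were Dglucy (0.898), Abcc4 (0.888), Tfcp2 (0.888), Fzd4 (0.882) and Piga (0.871). Dglucy encodes a D-glutamate cyclase, Abcc4 an exporter of cyclic nucleotides, Fzd4 a Wnt receptor and Piga an enzyme of GPI anchor synthesis. Most unlike were Cc2d1b (-0.906) and the deacetylase gene Sirt2 (-0.886). They were picked as the extremes, so no test is given. None of the 4 companions of Tfcp2l1 outside the family passed for DT against PBS: Fzd4 had 8.47 ± 1.67 CPM (PBS) and 10.6 ± 1.71 CPM (DT) (SD, n = 6 each; log2 fold change 0.33, edgeR adjusted p = 0.234), Dglucy was at 0.22, Piga at 0.13 and Abcc4 at -0.01 (edgeR adjusted p of 0.381 to 0.978).

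Genes tied to the family elsewhere were compared next. In all, 7 lists of such genes held 100 different genes, of which 72 were tested and 2 passed, both lower in DT (2.78%, against 1.30% of all genes). The median log2 fold change of the 72 was -0.03, against 0.01 over all genes. Of all 14231 genes tested, 2188 had an unadjusted p under 0.05, 6888 had a negative fold change and 314 had groups without overlap. These are the background for the counts of each list.

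**Figure D5:**
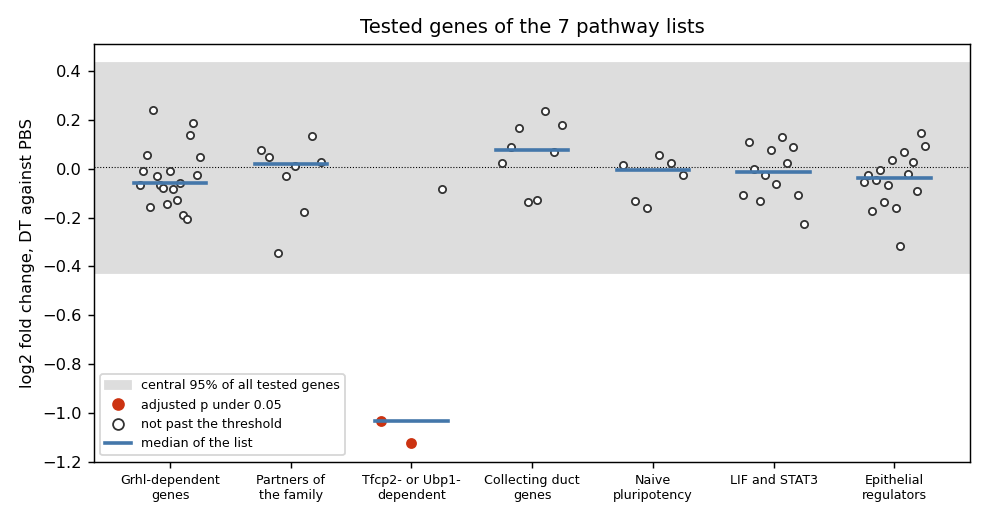
Log2 fold change of every tested gene in 7 lists of genes tied to the family; filled red points passed the threshold, blue lines are list medians, and the grey band holds the central 95% of all tested genes (-0.43 to 0.43). The 2 red points are Hba-a1 and Hba-a2; every other point lies within the band.

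Of 20 genes reported to depend on grainyhead-like factors in epithelia, 19 were tested and 0 passed by edgeR, with 4 at an unadjusted p under 0.05, against 2188 of the 14231 genes tested. The median log2 fold change was -0.06, and 14 of the 19 were negative, against 6888 of 14231. Elf3, an epithelial transcription factor, ranged from 14.3 to 16.2 CPM in PBS and 16.6 to 19.7 CPM in DT. Its groups did not overlap, but it did not pass (log2 fold change 0.19, edgeR adjusted p = 0.138). Dsg1a, the desmosomal cadherin tied to Grhl1, was at 2332 CPM on average in PBS and 2043 CPM in DT (-0.19, edgeR adjusted p = 0.184). Cdh1, which encodes E-cadherin, was at -0.07 and Tgm1 at -0.13, and neither passed (edgeR adjusted p = 0.555 and 0.544; named for their known link to Grhl2 and Grhl3). Of 8 genes for partners of these factors 0 passed. An unadjusted p under 0.05 was found for 2 of the 8, against 2188 of 14231 genes: Pias1, a SUMO ligase, was at -0.18 (edgeR adjusted p = 0.124) without overlap of the groups, and Apbb1, an adaptor that binds Tfcp2, was at -0.34 (edgeR adjusted p = 0.247).

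Among genes reported to depend on Tfcp2 or Ubp1, 3 of 6 were tested. The alpha-globin genes Hba-a1 and Hba-a2 fell, from 9.68 to 4.79 CPM (log2 fold change -1.03, edgeR adjusted p = 0.0373) and from 6.37 to 2.95 CPM (-1.12, edgeR adjusted p = 0.0172). Tyms, which makes thymidylate, was at -0.08 (edgeR adjusted p = 0.794). The globin genes are near-identical copies, so the split of reads between them is uncertain. Both are also on the list of 5 red blood cell markers. Of the other markers on it, Hbb-bs fell (log2 fold change -0.90, edgeR adjusted p = 0.0472), and Hbb-bt (-0.99, edgeR adjusted p = 0.0810) and Alas2 (-0.69, edgeR adjusted p = 0.150) did not pass. The summed level of the 5, alpha-globin included, ran from 20.5 to 51.5 CPM in PBS and from 15.8 to 25.4 CPM in DT. The part of blood in their fall was not tested. The calls were not stable, with 0 to 2 of the list genes past the threshold when 1 sample was left out and 0 without DT 5.

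The upstream signal and the partners of Tfcp2l1 in stem cells did not pass. Of 14 genes of LIF and STAT3 signalling 12 were tested and 0 passed by edgeR, with 1 at an unadjusted p under 0.05 and a median log2 fold change of -0.02. The receptor gene Il6ra was at -0.13 (edgeR adjusted p = 0.291) and the kinase gene Tyk2 at 0.13 (edgeR adjusted p = 0.362). Stat3 had means of 104 (PBS) and 106 CPM (DT; log2 fold change 0.02, edgeR adjusted p = 0.889), and Socs3, a target of STAT3, was at 0.09. Of 15 genes of naive pluripotency 6 were tested and 0 passed, with 0 at an unadjusted p under 0.05. They were Klf2, Klf4 (-0.13, edgeR adjusted p = 0.544), Klf5 (-0.16, edgeR adjusted p = 0.371), Tbx3, Sox2 and Tcf7l1. Esrrb, a partner of Tfcp2l1 in stem cells, had 1 count in PBS and 1 in DT. Among 18 regulators of epithelial identity 16 were tested and none passed. An unadjusted p under 0.05 was found for 2 of the 16, against 2188 of 14231 genes. These were Hopx (667 to 536 CPM, -0.31, edgeR adjusted p = 0.0661) and Zfp750 (379 to 337 CPM, -0.17, edgeR adjusted p = 0.102). Their groups did not overlap, which held for 2.21% of all genes.

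Of 19 genes tied to Tfcp2l1 in the kidney collecting duct, 8 were abundant enough to be tested and 0 passed by edgeR. None had an unadjusted p under 0.05 (0 of 8), and their median log2 fold change was 0.08. The list went both ways, with 6 positive and 2 negative, against 7343 and 6888 of the 14231 genes tested. The negative ones were Atp6v1c2 (-0.14) and Atp6v0a4 (-0.13). Kit, a receptor kinase, had means of 5.15 (PBS) and 5.80 CPM (DT; log2 fold change 0.17, edgeR adjusted p = 0.427), and Jag1, a Notch ligand, was at 81.5 and 86.8 CPM (0.09, edgeR adjusted p = 0.466). Foxi1, the regulator of intercalated cells, had 1 count in each group, and the water channel gene Aqp2 had 0 counts.

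Salivary ducts use Tfcp2l1 and could be carried along with the tongue epithelium. Of 14 duct markers 8 were tested and 0 passed, with 3 at an unadjusted p under 0.05 (Scnn1a, Krt7 and Krt18), against 2188 of the 14231 genes tested. The summed level of the list was 528 to 578 CPM in PBS and 486 to 525 CPM in DT without overlap, most of it from Scnn1a, Slc12a2 and Elf5, and its part in the level of Tfcp2l1 was not tested. Markers limited to ducts were scarce: Ascl3 had 5 and 8 counts in PBS and DT, Klk1 had 9 and 11, and Cftr had 10 and 27. All 8 tested are given, since the list went both ways. The keratin genes Krt7, Krt18, Krt19 and Krt8 stood at log2 fold changes of 0.55, 0.40, 0.37 and 0.11, and Slc12a2 at 0.04 (edgeR adjusted p of 0.320 to 0.948). Scnn1a stood at -0.21 with the smallest p of the list (edgeR adjusted p = 0.161), Elf5 at -0.07 and Egf at -0.04. Gland secretory markers summed to 18.1 to 25.2 CPM in PBS and 14.9 to 33.5 CPM in DT, with 4 of 18 tested and 0 called. On average the largest part came from Ano1, with means of 17.0 (PBS) and 15.5 CPM (DT). In that list Ltf, which encodes lactoferrin, stood at 11.1 and 17.6 CPM in DT 2 and DT 3 and at 0.533 to 1.46 CPM in the other DT samples. In PBS it was at 0.268 to 0.794 CPM, and its log2 fold change of 3.42 did not pass (edgeR adjusted p = 0.0620). The other tested markers of the list went both ways: Amy1 at 0.19, Bpifb1 at -0.01 and Ano1 at -0.13 (edgeR adjusted p of 0.673 to 0.997). With DT 2 and DT 3 removed, a choice made after seeing the data, the log2 fold change of Tfcp2l1 was 0.92. Tfcp2l1 stood at 41.7 and 32.1 CPM in these 2 samples, on either side of its DT mean of 36.7 CPM. Their removal therefore cannot show the part of gland tissue in its level, which was not tested. Taste bud markers summed to 24.7 to 28.9 CPM in PBS and 23.9 to 28.9 CPM in DT, mostly from Pou2f3 (means 15.8 and 15.6 CPM). Of 15, 6 were tested and 1 was called, against 1.30% of all genes: Chga (1.13 to 0.348 CPM, log2 fold change -1.72, edgeR adjusted p = 0.00909). The other tested markers went both ways, with Entpd2 at 0.38, Gnat3 at 0.33, Pou2f3 at -0.01, Plcb2 at -0.04 and Tas1r3 at -0.36 (edgeR adjusted p of 0.125 to 0.968).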

How the data were processed

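The authors deposited raw counts per gene and, in the same table, a normalized signal per gene, which equals the count divided by 1 size factor per sample; recomputed size factors differed from these by 0%, and the signal was used for nothing else. Per the submitters' processing notes, cutadapt 2.10, TopHat2 2.1.1, HTSeq 2.01 and DESeq2 1.36.0 were used with build GRCm39; annotation and strand setting are not given in the sources used here. Ubp1, Grhl2 and Tfcp2l1 overlap genes on the opposite strand, whose reads could be shared. Of 55414 genes, 6250 had blank counts and were left out.

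Groups and replicate numbers came from the titles. The test on raw counts was that of edgeR 4.0.16, run in R 4.3.3 (filterByExpr, minimum count 10; TMM; two-sided quasi-likelihood F test without covariate; Benjamini-Hochberg over 14231 genes, threshold 0.05), and with DESeq2 1.42.0 as an alternative. The code was tested on simulated data. A standard error is the size of the fold change over the square root of F. Lengths and transcript sequences were from GENCODE M21 (GRCm38), matched by gene ID for 6 of 6 members, and promoters from RefSeq for 5 of 6. No coordinates of the counts' build were used. Log2 CPM for correlations had a prior count of 1.

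The members and lists were chosen with earlier results of these data known. Named genes were the members, Cd207, called genes or the 2 smallest p of each list, the 5 genes most like and 3 most unlike Tfcp2l1 (1 of these 3 is not reported here), and its 3 neighbours on each side; others are marked or described by role. Counting limits cover counting error only.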

Additional observations from a re-analysis of the deposited data

Results flagged for a closer look

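Among 68 groups of 6 samples (34 named genes in PBS and in DT), 4 held a sample that stood far from the others. All 4 were PBS 5. Chance gives about 1 in 20 for independent groups, which these were not, so that rate is no benchmark here. PBS 5 also had the lowest TMM factor of the 12 samples (0.894) and the highest sum of keratinocyte markers (178516 CPM). Apbb1 was at 7.87 CPM in PBS 5 and at 4.78 to 5.93 CPM in the other PBS samples. Dglucy was at 3.21 CPM against 4.61 to 5.37 CPM, and Piga at 21.9 CPM against 26.0 to 27.6 CPM. Cc2d1b was at 61.6 CPM against 52.9 to 55.7 CPM. Dglucy, Piga and Cc2d1b were picked for their likeness or unlikeness to Tfcp2l1, which was also lowest in PBS 5 among the PBS samples, so these flags are not independent of each other.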

How the results depend on the processing

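The log2 fold change of Tfcp2l1 was 0.81 to 1.00 when each sample was left out in turn and 0.87 to 1.11 under the 9 other alternatives. Its edgeR adjusted p did not stay under 0.05 throughout: it was 0.112 with the replicate block and 0.0912 within PBS 5, PBS 6 and DT 1 to 3. These values are a description and no test, since the family was chosen by this contrast. Within PBS 5, PBS 6, DT 1, DT 2 and DT 3, which lie high on the first principal component, the log2 fold change was 1.11, and within the other samples 0.87; these splits and the removal of DT 2 and DT 3 were chosen after seeing the data. The count of called genes moved far more: 185 became 553 with library size alone (median of all genes 0.11), 567 by DESeq2, 38 without DT 2 and DT 3, 3 and 1120 within the 2 sets of samples, and 46 to 263 when 1 sample was left out. Library size alone made 87.5% of calls higher in DT, upper quartile scaling 47.9% and TMM 34.1%. The replicate numbers are shared by PBS and DT but do not pair the samples (correlation of deviations -0.310 to 0.104; 0 of 6 best with their own number); with the replicate block 8 genes passed, and 0 of the list genes. List genes past the threshold numbered 2 in the main analysis, 6 by DESeq2, 0 without DT 2 and DT 3, and 0 to 2 when 1 sample was left out. Grhl1 passed by DESeq2 (-0.18) and was at -0.20 to -0.15 when 1 sample was left out. Grhl2 turned sign, at -0.0049 with median-of-ratios size factors, -0.0050 by DESeq2, -0.0033 with the replicate block and -0.034 to 0.044 when 1 sample was left out. Grhl3 turned sign with library size alone (0.048) and was at -0.09 to -0.02 when 1 sample was left out. Tfcp2 was at 0.19 to 0.29 and Ubp1 at 0.04 to 0.10 in those repeats. The cause of these shifts was not tested. Tfcp2, with 81 to 181 counts, is the member that depth limits most.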

Other observations

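The V-ATPase subunit gene Atp6v1b1, marker of acid-secreting duct cells and listed with the collecting duct genes, was too scarce to be tested, with 16 counts over the PBS samples and 52 over the DT samples. It had 1 to 5 counts in each PBS sample and 3 to 14 in each DT sample; the ranges overlapped (chosen after its values were seen). In CPM these were 0.0366 to 0.191 in PBS and 0.116 to 0.418 in DT. Among the other genes of that list left untested, Rhcg, an ammonia transporter gene, had 34 counts in PBS and 55 in DT, Car2 had 9 and 14, Slc4a1 had 8 and 3, Slc26a4 had 3 and 0, and the rest had 0 or 1 in each group. Slc4a9 and Hepacam2, which were tested, stood at log2 fold changes of 0.24 and 0.18 (edgeR adjusted p = 0.635 and 0.770). Rhbg and Aqp3 stood at 0.07 and 0.02 (edgeR adjusted p = 0.865 and 0.916). The V-ATPase subunit genes Atp6v1c2 and Atp6v0a4, also tested and more abundant than Atp6v1b1, went the other way. They stood at -0.14 and -0.13 (edgeR adjusted p = 0.482 and 0.484).

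Grhl1 and Grhl2 also varied together within groups (Pearson correlation 0.627, Spearman's rho 0.571 over 12 samples; exact permutation p = 0.0387 and 0.0777; adjusted over 15 pairs 0.145 and 0.291), which did not pass. With the 2 samples farthest from the median left out it was 0.679. Of all members, Grhl2 followed the first principal component most closely (-0.762), with Grhl1 at -0.688 and Grhl3 at 0.624.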
